A study of Mus musculus with 2 samples.

Results

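The genes of the respiratory chain and the ATP synthase were described across stages and cycle phases of mouse thymocytes, the T cell precursors that mature in the thymus. Members were taken by gene symbol alone, with no measured value used. They were Ndufa, Ndufb, Ndufc, Ndufs or Ndufv followed by a digit, Sdha to Sdhd, the Uqcr, Cox4 to Cox8 and Atp5 symbols, Cycs, Cyc1 and every symbol that begins with mt-. This gave 99 of 27933 gene symbols, 86 of them nuclear and 13 in mitochondrial DNA. Droplet-based 3' RNA sequencing had been run on thymocytes of 2 genotypes, 1 library each: wild type, and both alleles mutated at GATA sites 1 and 2 of NMe, a distal Myc enhancer bound by NOTCH1. They are named wild type and mutant here, and strain, age and the number of animals are not given in the sources used here. With 1 library per genotype nothing could be tested: intervals are 95% and cover counting error only, and a genotype difference is one between these libraries.

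The respiratory chain passes electrons from NADH through complex I, or from succinate through complex II, to complex III, and on through the mobile carrier cytochrome c to complex IV, which reduces oxygen. Complexes I, III and IV pump protons, and complex V, the ATP synthase, makes ATP from the gradient. All of these except complex II and cytochrome c join nuclear subunits with core subunits encoded in mitochondrial DNA. Thymocytes go from the double-negative (DN) stage through rapid division to the small resting double-positive (DP) stage, and after selection become single-positive (SP) cells.

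The nuclear members comprised 35 genes of complex I, 4 of complex II, 9 of complex III with Cyc1, then Cycs, 20 of complex IV and 15 of complex V. Ndufa4 and Ndufa4l2, named for complex I, were placed with complex IV, and Atp5s and Atp5sl match by symbol without being subunits. The mt- members comprised 7 genes of complex I, mt-Cytb of complex III, 3 of complex IV and 2 of complex V. No unique molecular identifier (UMI, 1 counted RNA molecule) was seen in either library for Cox7b2, Cox8b, Cox8c and Ndufa4l2.

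The libraries held 6638880 UMIs in 1346 barcodes (wild type) and 6364506 in 1737 (mutant), of which 1344 and 1736 barcodes with at least 400 detected genes were kept, and 1 barcode occurred in both. The median barcode had 3323.5 and 2596 UMIs. Myc, whose enhancer is mutated, was at 45.1 UMIs per 1000000 (CPM; 40.1 to 50.5) in wild type against 23.1 CPM (19.5 to 27.2) in mutant, which does not check the label, since the enhancer is not transcribed as part of Myc. Cells with at least 10 UMIs of S and G2/M markers were called cycling. The rest were called DN-like (Il2ra, Hes1 and others), DP-like (Rag1, Rag2 and others), post-selection-like (Cd69, Egr2, Itm2a and others) or SP-like (Ccr7, Klf2, S1pr1 and others) from 4 UMIs of a set's markers. Wild type had 24 DN-like, 263 DP-like, 136 post-selection-like, 163 SP-like, 234 S and 366 G2/M cells. Mutant had 109, 441, 185, 365, 149 and 174 of them. At least 4 DP marker UMIs were present in 536 of 600 cycling cells of wild type and 219 of 323 of mutant, and at least 4 DN marker UMIs in 23 and 58. All 5 DP markers were detected in the DP-like set but 0 of them were among its 10 leading genes, whereas the other sets had 3 to 9 of their own. The leading genes of the SP-like set also held 1 marker of B and antigen-presenting cells, Ctss. Cells above 10% mt- UMIs numbered 3 in wild type, all DP-like, and 5 in mutant, 3 of them S and 1 DP-like. Several mt- values are also given without these cells, and the others include them unless stated.

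Because each molecule gives 1 tag at its 3' end, CPM can be compared without a length correction between genes that have an mRNA of their own. This does not hold where genes share an mRNA, as mt-Atp8 does with mt-Atp6 and mt-Nd4l with mt-Nd4. The most abundant nuclear members over all cells were Cox4i1, a core-binding subunit of complex IV, with 1056 CPM (wild type) and 1040.5 CPM (mutant), and Atp5h, a stalk subunit of the ATP synthase, at 1036 and 920.2 CPM. The succinate dehydrogenase genes of complex II were among the low ones, with Sdha at 96.0 and 119 CPM, Sdhb at 249 and 241, Sdhc at 63.3 and 63.7, and Sdhd at 114 and 92.3. Single mt- genes exceeded all of these, led by mt-Atp6 at 6356 and 6401 CPM, mt-Co3 at 4805 and 4737 and mt-Co1 at 4056 and 3839.6. mt-Nd6, the mt- gene on the opposite strand, had only 64 and 52 UMIs and enters only sums.

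Cycling thymocytes held a larger share of nuclear respiratory chain RNA and a smaller share of mt- RNA than DP-like cells, in both libraries. Of all UMIs in DP-like cells nuclear members made up 2.76% in wild type and 2.84% in mutant, and of those in cycling cells 3.31% in wild type and 3.49% in mutant. The mt- genes made up 3.96% (wild type) and 3.39% (mutant) of DP-like UMIs, against 2.41% and 2.17% of cycling UMIs. Without the cells above 10%, the mt- shares of DP-like and cycling cells were 3.52% and 2.41% in wild type and 3.37% and 2.03% in mutant. Cell by cell, the quartile ranges of the mt- share did not overlap between the sets, whereas those of the nuclear share did. The nuclear ranges were 2.36% to 3.20% in DP-like and 2.94% to 3.62% in cycling cells of wild type, and 2.40% to 3.11% and 3.03% to 3.89% in mutant. The mt- share of wild type cells had a median of 3.46% (quartiles 3.0% and 4.09%) in the DP-like set and 2.43% (2.00% and 2.89%) in the cycling set. In mutant the medians were 3.40% (2.79% and 4.02%) and 1.91% (1.64% and 2.37%).

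These are shares of unequal totals, since cycling cells yielded more UMIs. A wild type cycling cell had on average 231 nuclear and 168 mt- UMIs, against 63.6 and 91.5 in a DP-like cell. In mutant the values were 232 and 144 against 56.1 and 66.8. Both kinds of UMI were thus more numerous per cycling cell, the nuclear kind by the larger factor. Cycling cells were called from a fixed number of marker UMIs, which barcodes with more UMIs reach more easily. Median totals were 5898 UMIs in cycling and 2113 in DP-like cells of wild type, and 5842 and 1788 in mutant. The part of the set rule in these counts per cell was not tested.

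**Figure D1:**
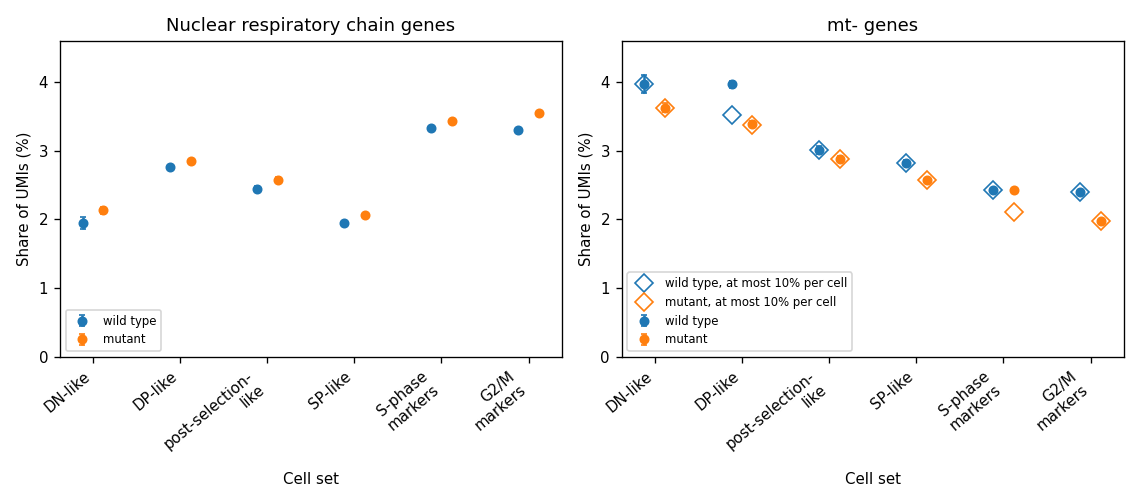
Share of all UMIs (%, y axis) from the 86 nuclear members and from the 13 mt- genes in each cell set (x axis), by library. Bars are 95% exact intervals for counting error, and open diamonds leave out cells above 10% mt- UMIs. The nuclear share is highest in S and G2/M cells (3.33% and 3.31% in wild type, 3.43% and 3.55% in mutant), where the mt- share is lowest.

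As log2 ratios of cycling over DP-like cells, the summed nuclear genes stood at 0.27 (0.24 to 0.29) for wild type and 0.30 (0.28 to 0.32) for mutant, beside medians over all tested genes of -0.21 and -0.14. Single genes were called higher or lower (past the fold) when 1 side exceeded the other by 25% after 5 CPM had been added to both, if they had 20 CPM on average and 50 UMIs. Of 78 nuclear members that met this, 41 were higher in cycling cells of wild type (background 26.0% of 5351 genes) and 7 were lower (background 44.3%). In mutant 42 of 78 were higher (background 27.7% of 5619 genes) and 7 were lower (background 40.4%). In both libraries at once 32 members were higher, 41.0% beside 22.0% of 5132 genes, and 5 were lower, 6.41% beside 33.5%. The members' share higher was therefore above the background and their share lower was below it.

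Complex V, the ATP synthase, had the highest ratio of the complexes, 0.46 (0.42 to 0.51) for wild type and 0.49 (0.45 to 0.53) for mutant, and 9 of its 15 genes were higher past the fold in both. Complex II had 0.27 and 0.36 in wild type and mutant, complex IV 0.23 and 0.21 and complex I 0.16 and 0.20. Of the 4 complex II genes, 2 were above 0 and 0 below 0 in both libraries, and only Sdhb was higher past the fold in both. Complex III had the lowest sum, 0.036 (-0.032 to 0.10) for wild type and 0.14 (0.080 to 0.21) for mutant, with members on both sides of 0: 5 of its 9 genes were higher past the fold in both libraries and Uqcrh was lower.

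Cytochrome c, the electron carrier that also activates caspases once released, had the largest ratio of the tested nuclear members in each library. Cycs was at 133 CPM in DP-like, 436 CPM in S and 381 CPM in G2/M cells of wild type and at 211 CPM in DP-like, 543 CPM in S and 499 CPM in G2/M cells of mutant. Both cycling sets lay above the DP-like set, with cycling over DP-like ratios of 1.59 (1.27 to 1.93) for wild type and 1.30 (1.07 to 1.53) for mutant. Cycs was also high in post-selection-like cells, at 316 and 322 CPM, and low in SP-like cells, at 151 and 161 CPM.

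Cox5a, a nuclear subunit of complex IV, was at 288 CPM in DP-like, 629.5 CPM in S and 574 CPM in G2/M cells of wild type and at 300.3 CPM in DP-like, 626 CPM in S and 622 CPM in G2/M cells of mutant. Its ratios, 1.05 and 1.06, were close to each other. Atp5b, the catalytic beta subunit of the ATP synthase, was at 572 CPM in DP-like, 1089 CPM in S and 1010.1 CPM in G2/M cells of wild type and at 673 CPM in DP-like, 1232 CPM in S and 1338 CPM in G2/M cells of mutant, with ratios of 0.86 (0.71 to 1.03) for wild type and 0.94 (0.81 to 1.07) for mutant. The 3 genes Atp5g1, Atp5g2 and Atp5g3 encode the same mature ring subunit of the ATP synthase from separate precursors, and all 3 were higher past the fold in both libraries. Their ratios in wild type and mutant were 1.03 and 0.74 (Atp5g1), 0.63 and 0.80 (Atp5g2) and 0.74 and 0.68 (Atp5g3). Cyc1, the haem-bearing cytochrome of complex III, had 1.09 (0.67 to 1.53) for wild type and 0.51 (0.23 to 0.79) for mutant, from DP-like levels of 82.4 and 158 CPM.

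A small group went the other way. Cox7a2l, a relative of a complex IV subunit that takes part in joining complexes into supercomplexes, was at 1216 CPM in DP-like, 519.6 CPM in S and 501 CPM in G2/M cells of wild type and at 969.9 CPM in DP-like, 420.3 CPM in S and 414 CPM in G2/M cells of mutant. Each cycling set lay below the DP-like set, with ratios of -1.26 (-1.38 to -1.14) for wild type and -1.22 (-1.36 to -1.08) for mutant, while its paralog Cox7a2 had 0.66 and 0.62. Uqcrh, the hinge subunit of complex III, was at 1253 CPM in DP-like, 727 CPM in S and 701 CPM in G2/M cells of wild type and at 1006 CPM in DP-like, 688 CPM in S and 593 CPM in G2/M cells of mutant, with ratios of -0.82 and -0.66. The other members lower past the fold in both libraries were Ndufa6 of complex I (-0.81 and -0.53), Cox6b2, the testis form of Cox6b1 (-0.90 and -0.61), and Atp5sl (-1.02 and -1.41). Cox6b2 rests on few molecules, 51.1 and 56.4 CPM in DP-like cells, and the general form Cox6b1 had -0.027 and -0.074. Several of these genes have processed pseudogenes, and how reads shared with such copies were counted is not given in the sources used here.

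**Figure D2:**
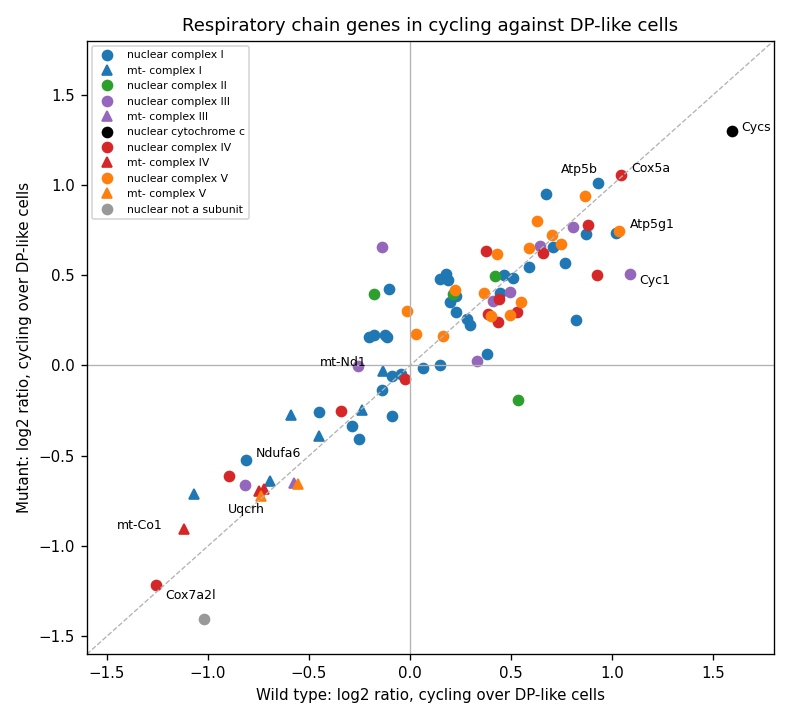
Log2 ratio of CPM in cycling over DP-like cells for each tested member, in wild type (x axis) and mutant (y axis), coloured by complex; the dashed line marks equal ratios. Cycs is farthest to the upper right, Cox7a2l is farthest to the lower left of the subunits, and the mt- genes lie below 0 on both axes.

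Promoters were read beside these ratios, as NRF1, GABPA (an ETS factor) and YY1 are known activators of respiratory chain genes. RefSeq windows on GRCm38.p6, from 250 bases before to 50 after the start, were matched for 70 of the 86 nuclear members. A gene with several windows was counted if any of them held the motif, on either strand. The NRF1 core GCATGCGC was found for 11 of 70 members, 15.7% beside 3.05% of all 27025 genes. Its longer form, with GC before the core, was found for 5 of 70 members, 7.14% beside 1.07%. The ETS motif CCGGAAG was found for 16 of 70 members, 22.9% beside 9.93%, and the YY1 motif AAGATGGC for 11 of 70, 15.7% beside 3.19%. Members' windows had a median G and C content of 57.5% beside 52.7%, whose part in these shares was not tested. The background takes in genes not expressed in these cells, and a background of expressed genes only was not run. The NRF1 core was found in 6 of 28 matched members higher in cycling cells of both libraries, 1 of 5 lower and 4 of 33 other tested members. The ETS motif was found in 8 of 28 matched members higher in cycling cells of both libraries, 1 of 5 lower and 7 of 33 other tested members. A match describes letters in the window, not binding.

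The 250 bases before the start follow for a pair of genes that were higher in cycling cells (Cycs, Cox5a), a pair that were lower (Cox7a2l, Uqcrh) and Cox6a1, which holds both kinds of motif, so that they can be read side by side. Capitals mark the NRF1 and ETS motifs on either strand, and each sequence runs 5' to 3' on the gene's strand. Cycs holds the NRF1 core, Cox6a1 the longer NRF1 form and an ETS motif and Uqcrh an ETS motif, whereas Cox5a and Cox7a2l hold none of these in this stretch. Positions on GRCm38.p6 are Cycs chr6:50566570-50566819, Cox5a chr9:57520982-57521231, Cox6a1 chr5:115348959-115349208, Cox7a2l chr17:83514334-83514583, Uqcrh chr4:116075071-116075320; Cox5a is on the plus strand and the others are on the minus strand.
Cycs: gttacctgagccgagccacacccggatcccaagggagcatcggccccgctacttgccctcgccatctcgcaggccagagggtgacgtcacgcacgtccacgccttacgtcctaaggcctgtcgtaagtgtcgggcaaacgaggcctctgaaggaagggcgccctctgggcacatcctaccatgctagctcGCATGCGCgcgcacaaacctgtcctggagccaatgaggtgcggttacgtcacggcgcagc
Cox5a: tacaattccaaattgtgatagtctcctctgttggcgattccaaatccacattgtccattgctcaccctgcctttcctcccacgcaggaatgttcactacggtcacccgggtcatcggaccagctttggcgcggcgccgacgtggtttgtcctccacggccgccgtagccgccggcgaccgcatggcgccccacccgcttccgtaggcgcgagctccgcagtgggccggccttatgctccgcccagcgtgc
Cox6a1: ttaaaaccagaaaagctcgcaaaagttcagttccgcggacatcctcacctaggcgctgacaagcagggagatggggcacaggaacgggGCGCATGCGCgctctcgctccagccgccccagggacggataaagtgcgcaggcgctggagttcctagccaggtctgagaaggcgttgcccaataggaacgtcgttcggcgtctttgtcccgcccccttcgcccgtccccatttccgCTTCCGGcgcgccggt
Cox7a2l: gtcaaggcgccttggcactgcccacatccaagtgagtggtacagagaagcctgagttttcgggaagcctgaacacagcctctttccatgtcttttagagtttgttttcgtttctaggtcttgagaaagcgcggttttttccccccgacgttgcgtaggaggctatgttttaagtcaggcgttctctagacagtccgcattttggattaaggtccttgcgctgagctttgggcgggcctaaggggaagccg
Uqcrh: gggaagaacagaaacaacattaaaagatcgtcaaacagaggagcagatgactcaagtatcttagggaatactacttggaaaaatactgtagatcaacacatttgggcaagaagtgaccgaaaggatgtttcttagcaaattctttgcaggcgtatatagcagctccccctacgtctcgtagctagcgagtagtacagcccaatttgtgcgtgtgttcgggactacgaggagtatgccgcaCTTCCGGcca

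Mitochondrial DNA is transcribed into long precursors that are cut into single mRNAs, which then differ in stability. The summed mt- genes had cycling over DP-like ratios of -0.72 (-0.74 to -0.70) for wild type and -0.64 (-0.66 to -0.62) for mutant, and of -0.54 and -0.73 without the cells above 10%. All 12 tested mt- genes were below 0 in both libraries, 10 of them past the fold in wild type and 9 in mutant, beside the background shares lower given above; without those cells 11 were below 0 in wild type. The size differed widely between genes. mt-Co1, the catalytic core of complex IV, was at 7599 CPM in DP-like, 3403 CPM in S and 3556 CPM in G2/M cells of wild type and at 5395 CPM in DP-like, 3141 CPM in S and 2663 CPM in G2/M cells of mutant. Its ratios were -1.12 (-1.17 to -1.07) for wild type and -0.91 (-0.96 to -0.85) for mutant, and -0.97 and -1.01 without the high cells. mt-Nd1, a membrane subunit of complex I, was at 2849 CPM in DP-like, 2738 CPM in S and 2513 CPM in G2/M cells of wild type and at 2619 CPM in DP-like, 2986 CPM in S and 2217 CPM in G2/M cells of mutant. Its ratios of -0.13 (-0.21 to -0.059) for wild type and -0.032 (-0.10 to 0.039) for mutant were near 0, and became 0.10 and -0.10 without the high cells and 0.081 and 0.11 after median centring, so that its direction was not stable.

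By complex, the mt- genes of complex IV had ratios of -0.87 and -0.76, those of complex V -0.73 and -0.72, mt-Cytb -0.57 and -0.65 and those of complex I -0.41 and -0.28. The nuclear and mitochondrial sums of complexes IV, V and I therefore lay on opposite sides of 0 in both libraries. Of single nuclear genes, 13 of 35 in complex I and 4 of 13 in complex IV were below 0 in wild type, and 9 and 4 in mutant. Over the alternatives run, the nuclear sum stayed above 0 and the mt- sum below 0 in both libraries.

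Among the resting sets, DN-like cells had the fewest nuclear UMIs per mt- UMI, 0.49 in wild type and 0.589 in mutant, against 0.787 and 0.844 in DP-like cells without those above 10%. Of all UMIs in DN-like cells nuclear members took 1.94% in wild type and 2.13% in mutant, and mt- genes 3.97% in wild type and 3.62% in mutant. SP-like cells had nuclear shares of 1.94% in wild type and 2.06% in mutant but lower mt- shares, 2.82% in wild type and 2.57% in mutant. Post-selection-like cells had nuclear shares of 2.44% in wild type and 2.57% in mutant, between those of DP-like and SP-like cells, and mt- shares of 3.01% in wild type and 2.88% in mutant.

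The lower nuclear share of SP-like cells was like that of genes in general. Over DP-like cells the nuclear sum had ratios of -0.51 and -0.46 in wild type and mutant, beside medians of all genes of -0.46 and -0.45. In both libraries 40 of 74 members were lower, 54.1% beside 49.6% of 2996 genes, and 0 were higher, beside 11.3%. Ribosomal protein genes took 41.9% of UMIs in SP-like and 27.4% in DP-like cells of wild type and 38.9% and 22.1% in mutant, and with ribosomal protein and mt- genes out of the total the nuclear ratios were -0.19 and -0.11. The mt- sum had -0.49 and -0.40, then -0.32 and -0.39 without the cells above 10%, and -0.027 and 0.049 after median centring, where the mutant value changed sign.

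Single members departed from the rest. Ndufs5, an accessory subunit of complex I, was at 368 CPM in DP-like, 137 in SP-like and 131 in DN-like cells of wild type, and at 416, 154 and 151 CPM in mutant. Its SP-like over DP-like ratios were -1.43 (-1.82 to -1.05) for wild type and -1.44 (-1.70 to -1.18) for mutant. Ndufs4, a complex I subunit whose loss causes Leigh syndrome, had -1.69 and -1.13, and Sdhd, a membrane anchor of complex II, had -1.68 and -1.06. At the other end, Atp5e, the epsilon subunit of the ATP synthase, had 0.17 and 0.21 and Atp5g1 had 0.31 and 0.13. Cox7a2l was at 957 CPM in SP-like cells of wild type and 1007 in mutant. In each library its level in all 4 resting sets was above that in S and G2/M cells.

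In DN-like over DP-like cells the nuclear sum had ratios of -0.50 and -0.41 in wild type and mutant, beside medians of all genes of -0.50 and -0.28. In both libraries 37 of 73 members were lower, 50.7% beside 41.3% of 2052 genes, and 1, Atp5g2, was higher, beside 9.65%. The mt- sum had 0.00058 and 0.10, and 0.17 and 0.10 without the cells above 10%. With ribosomal protein and mt- genes out of the total the nuclear ratios were -0.17 and -0.20 and the mt- ratios 0.34 and 0.31. After median centring they were -0.0022 and -0.14, and 0.50 and 0.37. The wild type values rest on 24 cells. In post-selection-like over DP-like cells 5 of 75 members were higher in both libraries, 6.67% beside 11.0% of 2761 genes, and 14 were lower, 18.7% beside 25.9%. The higher ones were Atp5g1, Atp5g3, Ndufa1, Uqcrq and Cycs, and Cycs had ratios of 1.24 (0.82 to 1.67) for wild type and 0.61 (0.30 to 0.93) for mutant.

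Between the cycle phases the nuclear sum had G2/M over S ratios of -0.008 and 0.049 in wild type and mutant. They were -0.15 and -0.10 with ribosomal protein and mt- genes out of the total and -0.094 and -0.051 after median centring, so the mutant value changed sign. Ribosomal protein genes took 32.9% of UMIs in S and 26.2% in G2/M cells of wild type and 26.6% and 19.3% in mutant. In both libraries 2 of 77 members, Ndufa9 and Uqcrc1, were higher in G2/M, beside 16.9% of 4618 genes, and 1, Atp5g1, was lower, beside 8.36%. Atp5g1 was at 445 CPM in S and 329.7 in G2/M cells of wild type and at 505 and 354 CPM in mutant, with ratios of -0.43 (-0.58 to -0.29) for wild type and -0.51 (-0.70 to -0.32) for mutant. Its paralogs had -0.033 and 0.20 (Atp5g2) and -0.28 and -0.16 (Atp5g3). The mt- sum had ratios of -0.011 (-0.030 to 0.007) for wild type and -0.30 (-0.33 to -0.27) for mutant, and of -0.011 and -0.10 without the 3 mutant S cells above 10%. With cells thinned to 1500 UMIs the mt- ratios were 0.082 and -0.063, with the changed total -0.15 and -0.45, and after median centring -0.10 and -0.40.

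Over all cells the nuclear members' share of UMIs was 3.01% in wild type and 2.80% in mutant, a mutant over wild type ratio of -0.10 (-0.11 to -0.094). Of 78 members 0 were higher past the fold (background 19.4% of 5331 genes) and 1 was lower (background 8.23%). Inside the cell sets the ratio had the other sign, at 0.14 in DN-like, 0.045 in DP-like, 0.074 in post-selection-like, 0.088 in SP-like, 0.044 in S and 0.10 in G2/M cells, and 0.078 with the sets weighted equally. Cycling cells, which had the highest nuclear share, made up 600 of 1344 cells of wild type and 323 of 1736 of mutant. The sign depended on the total in most sets. In cycling cells the ratio was 0.076, but -0.052 with ribosomal protein and mt- genes out of the total and -0.073 after median centring, and the DN-like, DP-like, S and G2/M ratios were below 0 under both. In SP-like cells it was 0.0066 and -0.0024, and in post-selection-like cells it stayed above 0, at 0.0012 and 0.016. The ribosomal protein share of UMIs in cycling cells was 28.7% in wild type and 22.6% in mutant.

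Within cycling cells 7 of 77 nuclear members were higher in mutant (background 23.8% of 5146 genes) and 0 were lower (background 5.4%), so both shares were under the background. Complex IV had a ratio of -0.022 (-0.047 to 0.0026), complex V 0.11, complex I 0.12 and complex II 0.20, beside a median over all tested genes of 0.15. Of these complexes only complex II lay above that median. Sdha, the flavoprotein of complex II, was at 98.1 and 102 CPM in S and G2/M cells of wild type and at 130.0 and 168 CPM in mutant, a ratio of 0.59 (0.37 to 0.80) over cycling cells. Cycs had 0.37 (0.26 to 0.48). Cox7a2l had -0.29 (-0.40 to -0.17) within cycling cells although it had 0.15 over all cells, and -0.10 with stages weighted equally. The member lower past the fold over all cells was Cox8a, a small subunit of complex IV, with 949 CPM against 749.8 CPM in mutant, a ratio of -0.34 (-0.39 to -0.28); within cycling cells it had -0.14.

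**Figure D3:**
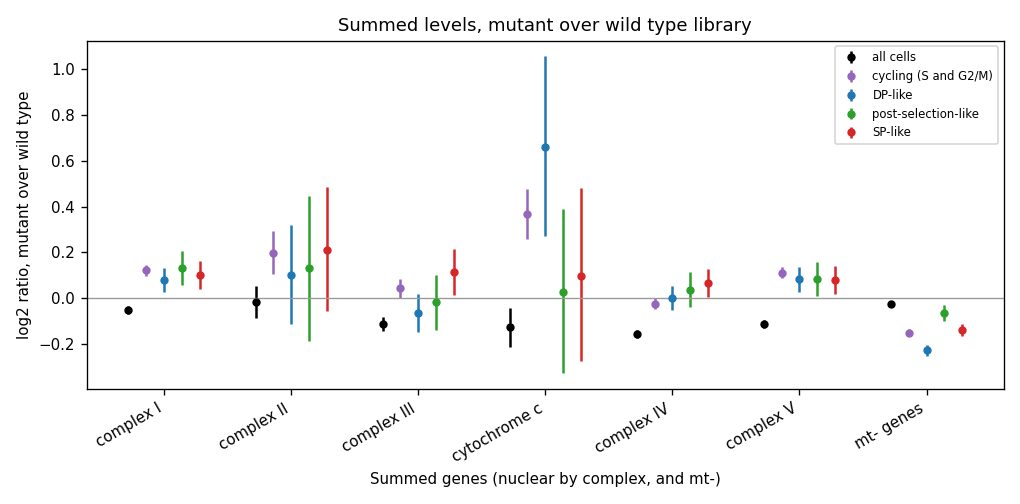
Log2 ratio of summed CPM, mutant over wild type, for the nuclear genes of each complex and the mt- genes, over all cells and within cell sets, with 95% intervals for counting error and all cells included. Over all cells the nuclear complexes lie below 0, from -0.15 for complex IV to -0.015 for complex II.

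The mt- sum had a mutant over wild type ratio of -0.022 (-0.032 to -0.012) over all cells. It was -0.13 in DN-like, -0.063 in post-selection-like, -0.14 in SP-like and -0.29 in G2/M cells, sets with no cell above 10%. With ribosomal protein and mt- genes out of the total these ratios were -0.37, -0.14, -0.22 and -0.43, and after median centring -0.32, -0.12, -0.23 and -0.45. With cells thinned to 1500 UMIs the post-selection-like ratio turned to 0.019. In DP-like cells it was -0.23 with and -0.060 without such cells, and in S cells 0.00082 and -0.20.

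mt-Atp8, a small membrane subunit of the ATP synthase, differed more between the libraries than the other tested mt- genes did over all cells. It had 1971 UMIs or 297 CPM in wild type and 2950 UMIs or 464 CPM in mutant, a ratio of 0.64 (0.56 to 0.73). By set the ratio was 0.60 in DN-like, 0.56 in DP-like, 0.85 in post-selection-like, 0.76 in SP-like, 0.57 in S and 0.37 in G2/M cells. Mutant was thus above wild type in all 6 sets, with each counting interval above 0. Over all cycling cells it was 0.46, and 0.20 with cells thinned to 1500 UMIs and assigned to sets again. The other 11 tested mt- genes ranged from -0.079 (mt-Co1) to 0.050 (mt-Nd2). On GRCm38 the gene lies at chrM:7766-7969 and shares 43 bases with mt-Atp6 (chrM:7927-8607), which lies on the same mRNA and had a ratio of 0.010 (-0.0096 to 0.030). How UMIs from the shared stretch were assigned is not given in the sources used here, and its part in the difference was not tested. With both genes on the same mRNA, a tag at the end of that mRNA cannot count mt-Atp8 apart from mt-Atp6. The mt-Atp8 ratio can therefore not be read as a change in the level of that mRNA. Where on the molecule the mt-Atp8 UMIs arose was not tested.

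**Figure D4:**
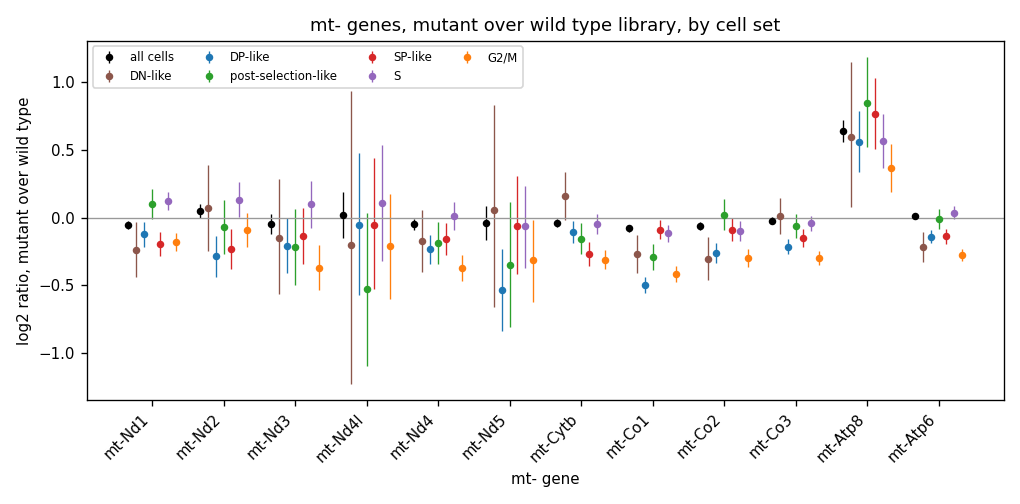
Log2 ratio of CPM, mutant over wild type, for the 12 tested mt- genes, over all cells and in each of 6 cell sets, with 95% intervals for counting error and all cells included. mt-Atp8 lies above 0 in every set.

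Cox6a2, the heart and muscle form of Cox6a1, had 54 UMIs in 22 cells of wild type and 0 in mutant, where 3 UMIs would be 0.472 CPM. A single cell with 149 UMIs of B and antigen-presenting cell markers gave 28 of them, and outside it wild type stood at 3.93 CPM. Cox6a1 had 599.6 and 518 CPM.

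Other mitochondrial gene lists were read at the same fold in cycling over DP-like cells. Of assembly factors, which help to build the complexes, 6 of 22 were higher and 6 lower in wild type, and 7 of 27 were higher and 9 lower in mutant. Of pyruvate dehydrogenase and TCA cycle genes, which supply NADH and succinate, 8 of 16 were higher and 3 lower in wild type, and 8 of 17 were higher and 3 lower in mutant; the highest in both was Fh1, the fumarase, with 1.42 and 1.32. Of genes for mitochondrial DNA expression and upkeep, 3 of 8 were higher and 2 lower in wild type, and 2 of 8 were higher and 3 lower in mutant. Of membrane carriers, 1 of 8 were higher and 1 lower in wild type, and 3 of 9 were higher and 3 lower in mutant, and of regulators of respiratory gene transcription, 0 of 5 were higher and 1 lower in wild type, and 1 of 5 were higher and 0 lower in mutant. Of chain-related genes whose symbols the rule leaves out, 3 of 4 were higher and 0 lower in wild type, and 2 of 4 were higher and 0 lower in mutant. The highest of these in both libraries, 1110001J03Rik, is not a subunit. The backgrounds were 26.0% and 27.7% higher and 44.3% and 40.4% lower in wild type and mutant. The shares higher of the TCA list and of the chain-related genes left out by the rule were above the background in both libraries. That of assembly factors was near it in both, and that of regulators was below it in both. That of mitochondrial DNA expression was above it in wild type (3 of 8) and slightly below it in mutant (2 of 8). That of carriers was below it in wild type (1 of 8) and above it in mutant (3 of 9). These lists are short, so 1 gene moves a share widely.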

How the data were processed

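Each deposited table gives UMI counts, not normalized, for gene symbols and cell barcodes. Thymocytes were captured with 10x 3' v2 reagents per the labels' protocols. Cell Ranger and mm10 are named in the submitters' processing notes; versions, and how barcodes were selected, are not given in the sources used here. The symbol rule uses no measured value, but it, the gene lists and the rule for named genes were chosen with earlier results of these data known.

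Barcodes with at least 400 detected genes were kept, with no limit on the mt- share. No doublets were removed; an alternative left out the highest 4% of Scrublet scores (scanpy 1.11.5) in each library. For a library and cell set, member UMIs were added up and divided by all UMIs (CPM). Shares have Clopper-Pearson intervals and log2 ratios exact conditional binomial intervals (scipy 1.17.1). Printed log2 ratios add nothing; calls and medians add 5 CPM. A cell meeting several rules went to other lineages, then cycling, SP-like, DN-like, post-selection-like, DP-like. Cells of other lineages, with 5 to 9 cycle marker UMIs or without a stage enter only values over all cells. Named genes were the mt- genes, complex II and cytochrome genes, the most abundant of each complex, the extremes of each comparison and paralog sets; Ndufa6, Ndufa9, Ndufa1, Uqcrc1 and Atp5g2 or Atp5g3 where they make up a small count were named after their values were seen. Alternatives changed the total, size factors (median-of-ratios, called median centring in the results), thinning, depth limit, doublets, marker thresholds, fold, added CPM, filter and weighting of stages. Scripts were tested on simulated counts.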

Additional observations from a re-analysis of the deposited data

Results flagged for a closer look

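The same contrast had opposite signs in the libraries, with both counting intervals off 0, in 5 cases, and the difference itself was not tested. Ndufc1 of complex I in post-selection-like over DP-like cells had a log2 ratio of -0.49 (-0.86 to -0.13) in mutant and 0.45 (0.029 to 0.87) in wild type. The mt- genes of complex IV in DN-like over DP-like cells had 0.065 (0.018 to 0.11) in mutant and -0.10 (-0.18 to -0.026) in wild type, and 0.073 and 0.063 without cells above 10% mt- UMIs. In G2/M over S cells the same genes had -0.23 (-0.27 to -0.18) in mutant and 0.032 (0.0044 to 0.060) in wild type, and -0.016 and 0.032 without those cells. For mt-Co1 the G2/M over S ratio was -0.24 (-0.31 to -0.17) in mutant and 0.064 (0.015 to 0.11) in wild type, and 0.006 and 0.064 without them. Atp5b, the catalytic subunit of the ATP synthase, had a G2/M over S ratio of 0.12 (0.010 to 0.23) in mutant and -0.11 (-0.20 to -0.020) in wild type.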

How the results depend on the processing

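Log2 ratios of sums are given in the order of settings named. The nuclear mutant over wild type ratio over all cells (-0.10) was -0.085 with the higher of both libraries' lowest UMI totals as a common limit, -0.16 with mt- and ribosomal protein genes out of the total, -0.18 with median-of-ratios size factors and 0.078 with stages weighted equally; the mt- ratio (-0.022) was -0.066, -0.075, -0.10 and -0.14, and -0.0037 as a mean over cells. In cycling cells the nuclear ratio (0.076) was -0.052 without those genes and -0.073 with size factors. There the mt- ratio (-0.15) was -0.25 without cells above 10% mt- UMIs, -0.27 thinned to 1500 UMIs a cell, -0.28 without those genes in the total, -0.21 without the highest doublet scores, -0.30 with size factors and -0.19 without cycling cells that had DN markers, an alternative chosen after seeing the data. For cycling over DP-like cells the nuclear ratio of wild type (0.27) was 0.22 thinned, 0.24 as a mean over cells and 0.48 with size factors, and that of mutant (0.30) was 0.23 with the common limit and 0.44 with size factors. The mt- ratio of wild type (-0.72) was -0.54 without high cells, -0.64 thinned, -0.60 as a mean over cells, -0.59 without high doublet scores and -0.50 with size factors. That of mutant (-0.64) was -0.73, -0.74, -0.55 (common limit), -0.71, -0.69 (DN markers) and -0.50. For SP-like over DP-like cells the nuclear ratios (-0.51 and -0.46) were -0.19 and -0.11 without mt- and ribosomal protein genes and -0.044 and -0.015 with size factors, and -0.53 in mutant with the common limit. The mt- ratios (-0.49 and -0.40) were -0.18 and -0.050, then -0.027 and 0.049; wild type had -0.32 without high cells, -0.46 thinned, -0.43 as a mean over cells and -0.38 without high doublet scores, and mutant had -0.30 with the common limit. Members higher in mutant over all cells (0) numbered 2 thinned and 1 with the common limit, and members lower (1) numbered 0 and 0, 4 without those genes, 4 with size factors, 0 at 1.5-fold and 2 with no filter. In cycling cells members higher (7) numbered 11 thinned, 2 without those genes, 2 with size factors and 0 at 1.5-fold, and members lower (0) 1, 2, 1 and, with no filter, 2. At 1.5-fold 20 members were higher in cycling over DP-like cells of wild type and 20 of mutant, and 3 were lower in mutant. The cause of these changes was not tested. In all, 2697 alternative values were computed over 305 results. For the main sums and counts of calls, 128 stayed within the main value's counting interval or, for counts, within 1.5 times. Another 65 of these moved past that limit, and 1 sum that was past the fold changed sign. For all other results 1953 stayed and 550 moved. No paired analysis was possible because each genotype has 1 library, and for the same reason no replicate could be left out. Depth limits single genes in the 24 wild type DN-like cells most.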
